A study of Mus musculus with 50 samples.

Results

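The genes described here build the nuclear pore and carry cargo through it, followed in mouse embryos that received Duxbl mRNA. They were chosen by name, as the protein-coding rows of the deposited table whose symbol is Nup, Kpna, Kpnb, Ipo or Xpo followed by a number, with Xpot included. The rule found 41 of 35750 genes, of which 19237 are protein-coding. They are 21 nucleoporins, 6 importin alpha genes, 8 importin beta family genes and 6 exportins. Nupl1 and Nupl2, older symbols of Nup58 and Nup42, are in the table but do not match the rule.

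Duxbl belongs to the same homeobox family as Dux, which switches on genes of the 2-cell stage, and the study is concerned with how embryos leave totipotency. Wild-type C57BL6/J zygotes from superovulated females aged 3 to 12 weeks were injected at 24 h after hCG, the hormone that triggers ovulation. Duxbl embryos received 200 ng/µl of an mRNA encoding Duxbl with a V5 tag, a 2A sequence and nuclear (NLS) mCherry. mCherry embryos received the same concentration of mRNA for nuclear mCherry, and uninjected embryos received none. Harvest was at 28 to 30 h after hCG for late 1-cell embryos (late 1C), at 32 h for early 2-cell embryos (early 2C) and at 48 h for late 2-cell embryos (late 2C), with 5 embryos pooled in each tube. Duxbl embryos gave 4, 5 and 5 libraries at these stages, and mCherry and uninjected embryos 6 each at every stage. All embryos share the strain and the culture, and the mRNA was supplied from outside, so Duxbl was not under its own promoter. Nothing in the labels says that tubes came from separate litters, so p-values measure the spread between these tubes, which may be technical.

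Proteins enter and leave the nucleus through nuclear pores, large rings of nucleoporins set in the nuclear envelope. The Y complex and the inner ring form the scaffold, nucleoporins rich in phenylalanine and glycine fill the central channel, and filaments extend into the cytoplasm and into the nuclear basket. Importin alpha binds the classical nuclear localization signal of a cargo, and importin beta 1, encoded by Kpnb1, takes the pair through the channel. Other members of the importin beta family bind their cargoes directly, and exportins carry cargoes out. The small GTPase Ran sets the direction of transport. In mouse, Kpna7 and Kpna2 encode importin alphas that are abundant in oocytes, and the embryo replaces the oocyte's transcripts with its own when its genome is activated in the 2-cell stage.

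Promoter sequence from RefSeq (GRCm38.p6) was available for 32 of the 41 members. The 250 bases before the annotated start are shown for the pair of members that rose most and the pair that fell most in Duxbl embryos at late 2C, among those with an entry, so that their upstream sequences can be read beside their values. Ipo8 lies downstream of chr6:148831468-148831717, Kpna7 of chr5:145009637-145009886, Ipo4 of chr14:55635685-55635934 and Ipo11 of chr13:106936959-106937208, all on the minus strand. Each is written 5′ to 3′ in the gene's direction, and capitals mark a match to any of 7 short motifs that were searched on both strands.
Ipo8: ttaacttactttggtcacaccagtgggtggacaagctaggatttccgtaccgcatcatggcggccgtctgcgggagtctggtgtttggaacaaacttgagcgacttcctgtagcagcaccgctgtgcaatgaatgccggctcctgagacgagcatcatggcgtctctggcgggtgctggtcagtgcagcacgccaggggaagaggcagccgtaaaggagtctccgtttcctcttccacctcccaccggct
Kpna7: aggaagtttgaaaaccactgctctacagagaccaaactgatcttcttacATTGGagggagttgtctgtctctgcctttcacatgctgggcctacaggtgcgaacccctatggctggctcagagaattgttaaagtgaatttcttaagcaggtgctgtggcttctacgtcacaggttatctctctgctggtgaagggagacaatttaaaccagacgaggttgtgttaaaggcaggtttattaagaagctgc
Ipo4: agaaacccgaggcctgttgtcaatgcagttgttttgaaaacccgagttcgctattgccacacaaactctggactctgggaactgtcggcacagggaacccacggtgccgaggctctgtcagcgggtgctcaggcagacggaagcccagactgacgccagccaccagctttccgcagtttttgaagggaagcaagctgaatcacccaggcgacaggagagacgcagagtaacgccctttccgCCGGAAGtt
Ipo11: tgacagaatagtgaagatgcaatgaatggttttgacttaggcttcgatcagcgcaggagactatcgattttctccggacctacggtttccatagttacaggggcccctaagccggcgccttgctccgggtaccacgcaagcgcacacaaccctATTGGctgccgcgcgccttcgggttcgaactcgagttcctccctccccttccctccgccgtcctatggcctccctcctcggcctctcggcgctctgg

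The motifs were ETS (CCGGAAG), the GC box (GGGCGG), the CCAAT box (CCAAT), the TATA box (TATAAA), the NRF1 core (TGCGCA), the E box (CACGTG) and the site of homeodomains of the K50 class (GGATTA). No motif contains another, although matches could overlap at their ends. In the 4 sequences shown, Kpna7 and Ipo11 each held a CCAAT match, which reads ATTGG on the strand printed, Ipo4 held an ETS match next to its start, and Ipo8 held none. The 27025 promoters set beside them are the first listed for each symbol and were not limited to expressed or protein-coding genes. Over all 32 members the GC box was found in 22 (68.8%), against 32.9% of all 27025 promoters. It stood in 9 of the 13 promoters of members that fell at late 2C, in 13 of the 17 of members that passed no threshold and in 0 of the 2 of members that rose. The CCAAT box stood in 17 members (53.1%) against 34.5% of all promoters, the NRF1 core in 6 (18.8%) against 6.66%, the ETS motif in 5 (15.6%) against 7.05%, the E box in 5 (15.6%) against 6.05% and the TATA box in 2 (6.25%) against 13%. GGATTA was in none of the 32 windows, against 6.38% of all promoters. The members' windows were richer in G and C than most, with a median of 64.4% against 52% over all promoters. That of Kpna7, at 46%, was the lowest among the 32, and that of Ipo5, at 82.4%, the highest. A match describes letters in this window and is not a measured binding site.

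The 50 libraries had deposited totals of 12.04 to 27.0 M. At late 2C the totals were 18.77 to 22.53 M in Duxbl, 12.76 to 18.75 M in mCherry and 12.04 to 18.21 M in uninjected libraries. All totals are of scaled values, and an approximate depth could be read for 32 libraries, at 13.7 to 32.9 M reads, and is unknown for the others. Levels are given as CPM, the deposited value relative to the size of its library on a common trimmed-mean scale, and log2 differences are on log2(CPM + 1). At late 2C the trimmed-mean factors were 0.964 to 1.113 in Duxbl and 1.089 to 1.488 in mCherry libraries, so library total and scaling differed with the treatment there. CPM is a share of the library, so fewer transcripts of a gene and more of all others cannot be told apart, nor can less RNA per cell and fewer cells. Duxbl1, the row that takes up the injected mRNA, stood at 1410 to 4799 CPM over the Duxbl libraries of the 3 stages, against 111 to 488 CPM in mCherry and 82.4 to 635 CPM in uninjected libraries. At late 2C, Duxbl library 4 agreed less with its group (mean correlation 0.823, against 0.868 to 0.883 for the others), as did uninjected libraries 4 and 5 (0.852 and 0.870). The embryo itself was checked on 10 oocyte and early embryo markers, all present in every group. Their summed level at late 2C was 3101 to 4038 CPM in Duxbl, 796 to 1459 CPM in mCherry and 769 to 1545 CPM in uninjected libraries, and 8 of 10 were called higher in Duxbl embryos. All 8 markers of the 2-cell stage were called lower in Duxbl embryos at late 2C, at summed levels of 6.84 to 168 CPM against 410 to 2236 CPM in mCherry libraries. Of cumulus and granulosa markers (14.1 to 52.8 CPM in Duxbl, 9.65 to 16.9 CPM in mCherry, highest for Cyp19a1 in Duxbl and Tnfaip6 in mCherry, with Inha at 0 in both groups), 2 were higher and 1 lower of 4 tested. Sperm markers (3.499 to 31.7 CPM in Duxbl, 3.13 to 9.42 CPM in mCherry) had 1 higher and 3 lower of 4, oviduct markers (76.8 to 178 CPM in Duxbl, 45.3 to 153 CPM in mCherry, mostly Epcam) 1 higher of 3, and blood markers (0 to 13.02 CPM in Duxbl, 25.1 to 41.6 CPM in mCherry) 2 lower of 2. Of the 2-cell stage markers, 1 of 7 tested was already lower in Duxbl than in mCherry embryos at late 1C, and 6 of 8 at early 2C. Their summed levels at early 2C were 10.6 to 33.8 CPM in Duxbl and 123 to 487 CPM in mCherry libraries. The part of all these markers in the results below was not tested.

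Before late 2C no pore or transport gene passed the threshold between Duxbl and mCherry embryos. At late 1C, limma called 0 of the 40 members tested between Duxbl and mCherry embryos, where 0.0193% of all genes were called. Nup62cl did not pass the filter on low values at that stage. The members' log2 differences ran from -0.33 to 0.66, and 1 member, Xpo1, had an unadjusted p under 0.05. At early 2C, 0 of 41 were called against 0.42% of all genes, with differences of -0.26 to 0.51 and again 1 unadjusted, Kpna2. With voom weights in limma the counts were also 0 at both stages. The markers of the set stood close together: Kpna7 averaged 324 ± 30.4 CPM in Duxbl embryos at late 1C (SD, n = 4), 377 ± 43.5 CPM in mCherry and 360.5 ± 54.6 CPM in uninjected embryos (n = 6 in both control groups). At early 2C it averaged 394 ± 14.8 CPM in Duxbl (n = 5), 384 ± 34.8 CPM in mCherry and 439 ± 60.3 CPM in uninjected embryos. Kpna2 averaged 1024 CPM in Duxbl, 1228 CPM in mCherry and 1058 CPM in uninjected embryos at late 1C. At early 2C it averaged 541 CPM in Duxbl, 650 CPM in mCherry and 669 CPM in uninjected embryos.

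Injection itself was checked with mCherry against uninjected embryos. limma called 0 of 40, 0 of 41 and 0 of 41 members at the 3 stages in order, with 0 at an unadjusted p under 0.05 at each stage. Over all genes 0% were called at each stage, although 564, 781 and 383 genes had an unadjusted p under 0.05, and voom weights also gave 0 genes.

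At late 2C the set differed widely between Duxbl and mCherry embryos, mostly downward. Of the 41 members, 4 were higher (Ipo8, Kpna7, Kpna3 and Xpo7) and 18 lower, and 19 did not pass an adjusted p under 0.05. The background was 26.8% of genes higher and 29.1% lower. The members' median log2 difference was -0.76, against -0.05 over all genes. The difference was at least 2-fold for 3 of the members that rose and 17 of those that fell. The 2 groups' libraries did not overlap for 3 of the 4 higher and 12 of the 18 lower members. Neither the 2-fold share nor the share without overlap was taken over all genes, so these counts describe the members only. Scaling moved all genes together, with a median of -0.26 under library totals. The members were then 3 higher and 22 lower, where 4957 of 23052 genes were higher and 7510 lower. Of the 22 called members, 20 stayed called under every alternative tried, the exceptions being Xpo7 and Nup35.

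**Figure D1:**
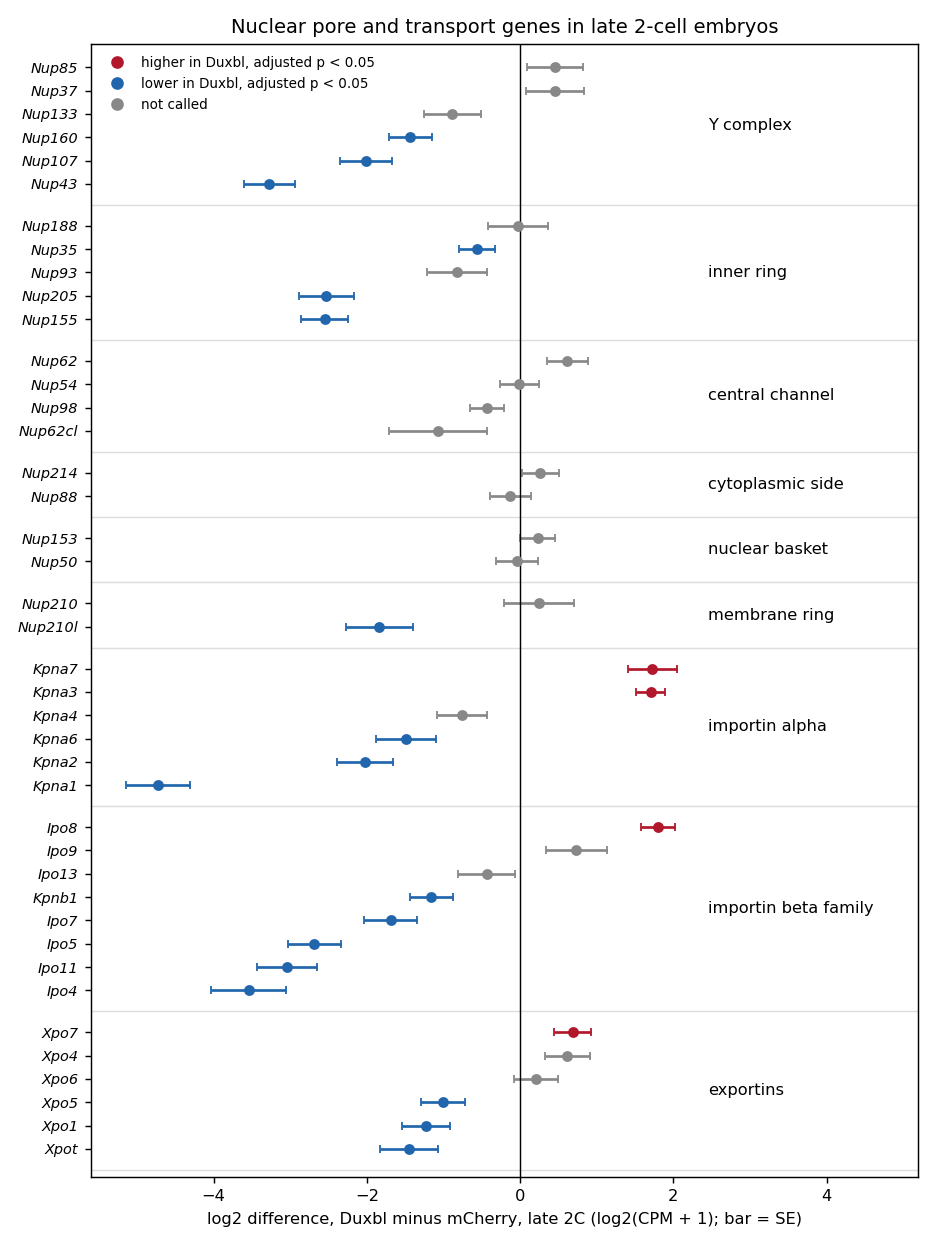
Log2 difference of Duxbl minus mCherry embryos at late 2C on log2(CPM + 1) for each of the 41 members, grouped by role, with the standard error as a bar; red and blue points passed limma's adjusted p under 0.05 and grey points did not. Ipo8, Kpna7, Kpna3 and Xpo7 lie above 0 among the called members, and 18 called members lie below it, down to Kpna1 at -4.73.

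The importin alpha genes went in both directions. Kpna7 (ENSMUSG00000038770, mm39 chromosome 5, 144920329 to 145020840, minus strand) encodes the importin alpha best known from oocytes and early embryos. It stood at 89.9, 139.6, 131, 67.3 and 59.1 CPM in Duxbl libraries 1, 3, 4, 6 and 7. Its lowest, median and highest values were 20.1, 28.1 and 33.2 CPM in mCherry libraries and 13.2, 25.9 and 50.6 CPM in uninjected ones. Every Duxbl library was above every control library. The log2 difference from mCherry was 1.72 ± 0.32 (SE, limma adjusted p = 9.21e-05).

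Kpna2 (ENSMUSG00000018362, chromosome 11, 106879455 to 106890367, minus strand), another importin alpha of oocytes and of dividing cells, moved the other way. It stood at 125, 119.6, 96.0, 135 and 143 CPM in Duxbl libraries, against 315, 520.2 and 887.5 CPM (lowest, median, highest) in mCherry and 223, 586 and 1102 CPM in uninjected libraries. The groups did not overlap, and the Duxbl libraries were the more uniform. The log2 difference was -2.03 ± 0.37 (adjusted p = 6.64e-05). An annotated pseudogene, Kpna2-ps, could take up or lend reads, so the share of reads that is from Kpna2 is uncertain.

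Kpna3 (ENSMUSG00000021929, chromosome 14, 61602660 to 61677323, minus strand) reached 1093, 921, 796.5, 1000 and 1124 CPM in Duxbl libraries. In mCherry libraries it ran from 241 to 335 CPM around a median of 313 CPM, and in uninjected ones from 200.2 to 418 CPM around 297 CPM. No Duxbl library overlapped a control library, and the difference was 1.71 ± 0.19 (adjusted p = 1.35e-07). Kpna1 (ENSMUSG00000022905, chromosome 16, 35799120 to 35857501, plus strand), a widely expressed importin alpha, was at the other end. It stood at 26.5, 5.52, 15.6, 4.403 and 20.4 CPM in Duxbl libraries, against 165, 377 and 484 CPM (lowest, median, highest) in mCherry and 174, 453 and 621 CPM in uninjected ones. That was the largest fall in the set, at -4.73 ± 0.42 (adjusted p = 5.63e-09).

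Kpna6, an importin alpha that mouse oocytes supply to the embryo, averaged 21.4 ± 10.1 CPM in Duxbl and 59.5 ± 24.9 CPM in mCherry embryos (SD, n = 5 and 6). It fell by 1.49 on the log2 scale (adjusted p = 0.002656) with a small overlap between Duxbl libraries at 6.89 to 35.4 CPM and mCherry libraries at 34.0 to 98.7 CPM. Kpna4 averaged 19.9 CPM in Duxbl and 31.8 CPM in mCherry embryos and just missed the threshold (-0.76, adjusted p = 0.05115). Under library totals it was called lower (-1.08, adjusted p = 0.007936), as were Nup133 (-1.19, 0.01324), Nup93 (-1.13, 0.01546) and Nup98 (-0.75, 0.001799).

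**Figure D2:**
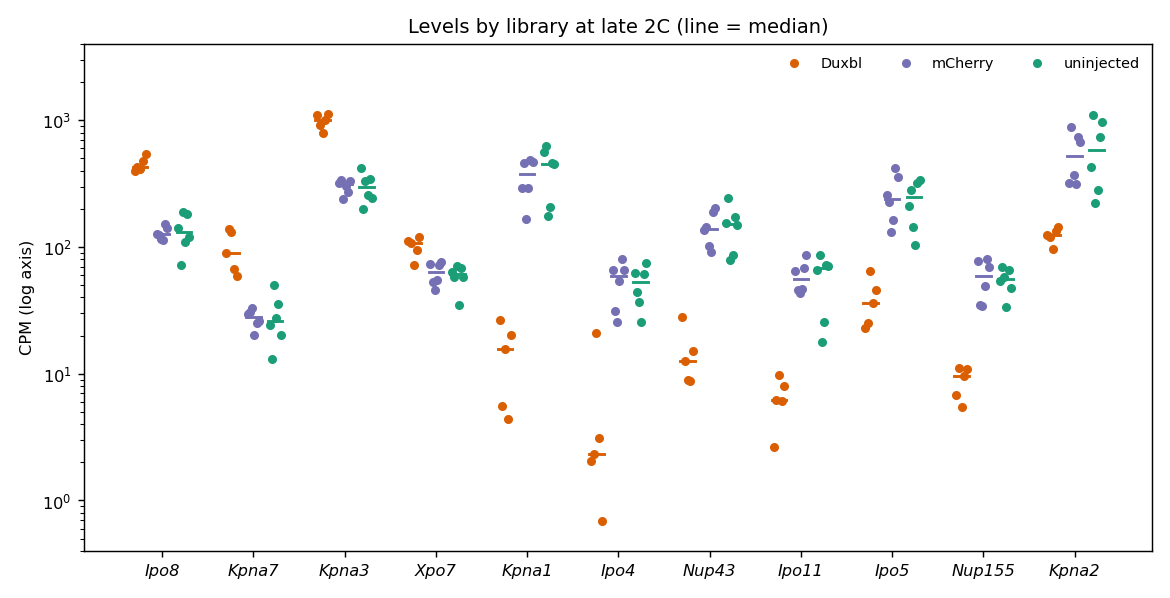
CPM on a log axis in each late 2C library (points) of Duxbl, mCherry and uninjected embryos for Kpna7, Kpna2 and the members with the largest called differences, with a line at the group median. Kpna7, Kpna3 and Ipo8 lie higher in all 5 Duxbl libraries than in any control library, and Kpna1, Nup43, Ipo11 and Nup155 lie lower in all 5.

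To compare importin alphas with each other, CPM was divided by the length of the union of each gene's annotated exons (GENCODE M21 models). The transcript forms present in these embryos were not determined, so shares between genes depend on these models. On this scale the summed level of the 6 genes was 311 ± 28.0 CPM per kb in Duxbl, 326 ± 106 in mCherry and 357 ± 136 in uninjected embryos at late 2C (SD), and the libraries' sums overlapped (269 to 339.7 in Duxbl, 222 to 462 in mCherry and 197 to 522 in uninjected ones). The make-up of that sum differed. Kpna3 made up 73.6 ± 3.93% of it in Duxbl embryos, with a range of 68.9 to 77.0%, against 23.2 ± 6.77% in mCherry embryos, with a range of 15.7 to 30.9%. Kpna2 made up 13.8 ± 1.20% in Duxbl and 57.0 ± 8.49% in mCherry embryos, and the ranges of 12.4 to 15.4% in Duxbl and 45.9 to 66.9% in mCherry libraries did not meet. Kpna7 made up 10.2 ± 4.503% in Duxbl and 2.95 ± 1.15% in mCherry embryos, and Kpna1 0.541 ± 0.335% in Duxbl and 12.99 ± 2.33% in mCherry embryos. Uninjected embryos had means close to those of mCherry embryos, with 56.6% from Kpna2, 23.1% from Kpna3, 13.4% from Kpna1 and 3.27% from Kpna7. Their libraries spread more widely, from 38.3 to 73.5% for Kpna2 and from 8.92 to 38.4% for Kpna3. For Kpna7 they ran from 0.803 to 7.97%, which overlapped the Duxbl range of 5.55 to 15.5%. At the earlier stages the 3 groups had similar make-ups. Kpna2, Kpna3 and Kpna7 gave 57.8%, 24.0% and 17.0% in Duxbl embryos at late 1C, against 60.9%, 20.8% and 17.4% in mCherry embryos. At early 2C they gave 41%, 30.1% and 27.4% in Duxbl and 45.7%, 28.1% and 24.9% in mCherry embryos. These shares follow from the levels above and carry no test of their own.

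**Figure D3:**
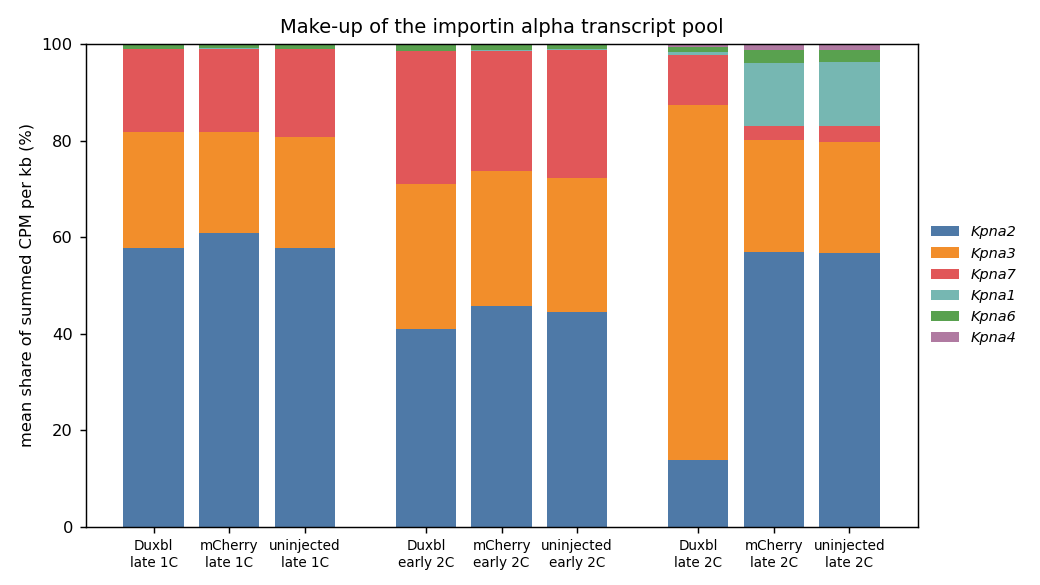
Mean share in percent of the summed importin alpha level (CPM per kb of exon) from each of the 6 genes, per group and stage. Kpna2 is the largest share in mCherry and uninjected embryos at every stage, and Kpna3 is the largest at late 2C in Duxbl embryos, at 73.6%.

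The importin beta family had 5 of its 8 members lower and 1 higher, against 29.1% and 26.8% of all genes. The higher one was Ipo8 (ENSMUSG00000040029, chromosome 6, 148672181 to 148732965, minus strand), an importer of Argonaute and SMAD proteins. It stood at 398, 427, 415, 481 and 543 CPM in Duxbl libraries, against 113, 126 and 153 CPM (lowest, median, highest) in mCherry and 72.7, 130.5 and 188 CPM in uninjected libraries. The lowest Duxbl library was above the highest control library by a wide margin. The difference was 1.80 ± 0.22 (adjusted p = 5.55e-07), and the sequence upstream of this gene is the one above with no motif match.

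Ipo5, Ipo4 and Ipo11 were the family's largest falls. Ipo5 (ENSMUSG00000030662, chromosome 14, 121148636 to 121185411, plus strand), which imports ribosomal proteins and histones, stood at 23.0, 25.0, 64.1, 36.3 and 45.8 CPM in Duxbl libraries. Its mCherry values were 132, 241 and 418 CPM and its uninjected values 103.5, 247 and 336 CPM (lowest, median, highest), with no overlap. The difference was -2.69 ± 0.35 (adjusted p = 1.05e-06). Ipo4, a histone importer, stood at 2.06, 2.31, 20.9, 3.14 and 0.69 CPM in Duxbl libraries against 25.7, 59.6 and 80.5 CPM in mCherry ones, where Duxbl library 4 was far above its group. Its difference was -3.54 ± 0.49 (adjusted p = 2.44e-06). Ipo4 shares 55.3% of its exonic bases with Gm49378 on the same strand, so the counting could have split its reads. Ipo11, which imports ubiquitin-conjugating enzymes, stood at 2.63, 6.22, 9.76, 6.09 and 8.06 CPM in Duxbl libraries against 43.1, 55.9 and 86.4 CPM in mCherry and 17.9, 67.8 and 86.0 CPM in uninjected libraries. No Duxbl library reached the lowest control library, and the difference was -3.04 ± 0.39 (adjusted p = 9.66e-07).

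Kpnb1 itself, the partner of every importin alpha, averaged 71.2 ± 14.03 CPM in Duxbl and 169 ± 72.3 CPM in mCherry embryos. It fell by 1.16 on the log2 scale (adjusted p = 0.001303) without overlap. Ipo7, an importer of ribosomal proteins and linker histones, stood at 72.0, 29.2, 25.9, 24.5 and 21.3 CPM in Duxbl libraries, against 48.2, 108 and 167 CPM (lowest, median, highest) in mCherry ones. Duxbl library 1 alone overlapped the mCherry libraries, and the difference was -1.69 ± 0.35 (adjusted p = 3.01e-04). The histone importer Ipo9 (45.8 CPM in Duxbl, 24.98 CPM in mCherry) and Ipo13 (6.53 CPM in Duxbl, 9.38 CPM in mCherry), which carries cargo both ways, did not pass (adjusted p = 0.121 and 0.325). Without Duxbl library 4, at 12.8 CPM the lowest of its group for Ipo9, that gene was called higher by 1.13 (adjusted p = 0.009046).

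Of the 6 exportins, 3 fell and 1 rose, against 29.1% and 26.8% of all genes, and all 4 overlapped between the groups. Xpo1, the main exporter of proteins with a leucine-rich export signal, averaged 176 ± 78.2 CPM in Duxbl and 404.5 ± 140.2 CPM in mCherry embryos and fell by 1.23 (adjusted p = 0.002073). Xpot, the tRNA exporter, averaged 15.2 CPM in Duxbl against 37.1 CPM in mCherry embryos and fell by 1.45 (adjusted p = 0.002276). Xpo5, the exporter of microRNA precursors, averaged 17.2 CPM in Duxbl against 34.4 CPM in mCherry embryos and fell by 1.00 (adjusted p = 0.004429). Xpo7, an exportin with a broad range of cargoes, stood at 112, 107, 71.6, 95.5 and 120.3 CPM in Duxbl libraries, against 46.1, 63.6 and 76.04 CPM (lowest, median, highest) in mCherry and 34.6, 61.1 and 71.4 CPM in uninjected ones. Only library 4 reached into the control range, and the rise was 0.69 ± 0.24 (adjusted p = 0.01975). That call was lost under library totals (0.37, adjusted p = 0.175), under factors computed within the stage (0.55, 0.0534) and without Duxbl library 7 (0.62, 0.0522). Xpo4, the exporter of the translation factor eIF5A (66.9 CPM in Duxbl, 41.6 CPM in mCherry), and Xpo6, the actin exporter (98.9 CPM in Duxbl, 79.5 CPM in mCherry), did not pass, and Xpo6 changed sign under library totals. Xpo4 (0.62) was called higher by limma with the replicate block (0.63, adjusted p = 0.0492) and against uninjected embryos (1.16, 0.001784). It was also called higher in the fit of all 9 groups (0.62, 0.004828) and without Duxbl library 3 (0.75, 0.0440).

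Among the nucleoporins taken by the name rule, the called falls were of 3 Y complex, 3 inner ring and 1 membrane ring members, and differences between these sites were not tested. The Y complex had 3 of 6 members lower, where 29.1% of all genes were lower. Nup43 (ENSMUSG00000040034, chromosome 10, 7543267 to 7554645, plus strand) stood at 28.3, 12.5, 8.87, 8.71 and 15.1 CPM in Duxbl libraries, against 91.3, 139 and 202 CPM (lowest, median, highest) in mCherry and 79.5, 152 and 245 CPM in uninjected ones. Its groups were far apart, with a difference of -3.27 ± 0.33 (adjusted p = 3.49e-08). Nup107, which with Nup160 and others builds the stem and arms of the Y, averaged 11.8 ± 3.77 CPM in Duxbl and 54.5 ± 27.7 CPM in mCherry embryos and fell by 2.01 (adjusted p = 3.09e-05). Nup160 averaged 26.2 ± 8.15 CPM in Duxbl and 71.9 ± 22.8 CPM in mCherry embryos and fell by 1.43 (adjusted p = 1.59e-04). Nup133 averaged 11.1 CPM in Duxbl and 19.7 CPM in mCherry embryos and lay at the threshold (-0.88, adjusted p = 0.05004). Nup37 (45.5 CPM in Duxbl, 29.1 CPM in mCherry) and Nup85 (79.9 CPM in Duxbl, 58.8 CPM in mCherry) did not pass, at 0.46 each, and without Duxbl library 4 Nup37 was called higher by 0.86 (adjusted p = 0.03006). Transcripts of 1 complex thus had differences from -3.27 to 0.46.

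The inner ring had 3 of 5 members lower, where 29.1% of all genes were lower. Nup155 (ENSMUSG00000022142, chromosome 15, 8138757 to 8190731, plus strand) stood at 6.75, 11.0, 5.44, 9.65 and 10.9 CPM in Duxbl libraries, against 34.2, 59.3 and 81.1 CPM in mCherry and 33.5, 56.0 and 69.8 CPM in uninjected ones. No Duxbl library came near the controls, and the difference was -2.55 ± 0.31 (adjusted p = 3.85e-07). Nup205, one of the large scaffold proteins of the ring, averaged 11.0 ± 5.88 CPM in Duxbl and 63.7 ± 24.0 CPM in mCherry embryos and fell by 2.53 (adjusted p = 4.22e-06). Nup35, which touches the membrane, averaged 109.7 CPM in Duxbl and 170.4 CPM in mCherry embryos with overlap and fell by 0.57 (adjusted p = 0.04593). Its call was lost without a low-value filter (adjusted p = 0.05796) and without any of 8 single libraries, the smallest difference being -0.41 without mCherry library 6 (adjusted p = 0.1301). Nup93 (-0.82) and Nup188 (-0.03) did not pass.

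In the membrane ring, Nup210l, a relative of Nup210 best known from testis, averaged 7.78 ± 5.06 CPM in Duxbl and 24.6 ± 6.11 CPM in mCherry embryos and fell by 1.84 (adjusted p = 0.001102). Nup210 was near the bottom of the scale in both groups, at 2.09 CPM in Duxbl and 1.32 CPM in mCherry embryos. None of the 4 central channel members passed. Nup62 averaged 232 ± 17.8 CPM in Duxbl and 157 ± 53.2 CPM in mCherry embryos (0.62, adjusted p = 0.05361), and Nup98 125.6 CPM in Duxbl and 173 CPM in mCherry embryos (-0.43, adjusted p = 0.101), though it was called lower under library totals, as above, and under median-of-ratios factors (-0.53, adjusted p = 0.03186). Nup62 was called higher by limma with voom weights (0.62, adjusted p = 0.0410), against uninjected embryos (0.67, 0.0373) and without mCherry library 3 (0.77, 0.0175). It was also called higher in the fit of all 9 groups (0.62, 0.005286). Nup54 was at 79.7 CPM in Duxbl and 80.5 CPM in mCherry embryos, a difference of -0.01 ± 0.26. Nup62cl, a relative of Nup62, was the most variable, with 2.06 to 15.2 CPM in Duxbl and 3.11 to 59.6 CPM in mCherry libraries. The cytoplasmic pair Nup88 and Nup214 (-0.13 ± 0.27 and 0.26 ± 0.24) and the basket pair Nup50 and Nup153 (-0.04 ± 0.28 and 0.23 ± 0.23) did not pass, and Nup153 and Nup214 changed sign under library totals.

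The normal course was read from uninjected embryos. Little moved by early 2C: 0 members were higher and 2 lower there than at late 1C, where 1.12% of all genes were called higher and 1.81% lower. Nup107 averaged 56.9 ± 24.0 CPM at early 2C and 110.5 ± 17.4 CPM at late 1C (-1.04 ± 0.28, limma adjusted p = 0.02155). Nup155 averaged 12.8 ± 4.56 CPM at early 2C and 26.2 ± 6.49 CPM at late 1C (-1.03 ± 0.23, adjusted p = 0.004012), and neither gene's groups overlapped. The count was 1 without early 2C library 4 or 5 or late 1C library 3 or 7, 0 without all libraries numbered 4 and 5, and 4 in a fit of the compared groups only. Kpna2 averaged 669 CPM at early 2C and 1058 CPM at late 1C without overlap but did not pass (adjusted p = 0.193).

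By late 2C most of the set had turned over in uninjected embryos. Against early 2C, 19 members were higher and 15 lower at late 2C, with 7 not called, where the background was 30.3% higher and 26.6% lower. The median of the members was 0.39, against 0.02 over all genes. Under library totals all genes shifted to a median of 0.15 and the members were 22 higher and 12 lower. Of 28808 genes, 9985 were then higher and 6379 lower. At least 2-fold changes were found for 14 of the higher and 12 of the lower members, and that share was not taken over all genes. The rises included 5 of 8 importin beta family genes and 5 of 6 exportins, with 1 fall in each group. Both cytoplasmic members fell, and so did both basket members, Nup50 (-0.67) and Nup153 (-0.51), but library totals ended the calls of the basket pair (-0.27 and -0.11, adjusted p = 0.128 and 0.517) and of Nup35 (-0.36, then 0.039).

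The 4 largest rises were of transcripts close to the bottom of the scale at early 2C. Kpna1 stood at 174 to 621 CPM at late 2C, against 0.737 to 8.84 CPM at early 2C (6.29 ± 0.40, adjusted p = 5.29e-19). Xpot stood at 27.7 to 58.1 CPM at late 2C, against 0.437 to 2.21 CPM at early 2C (4.398 ± 0.31, adjusted p = 1.36e-17). Kpna4, another importin alpha, stood at 23.9 to 52.2 CPM at late 2C against 0.445 to 1.82 CPM at early 2C (4.18 ± 0.27, adjusted p = 1.20e-18), and Ipo7 at 61.2 to 198 CPM at late 2C against 1.48 to 11.5 CPM at early 2C (4.03 ± 0.36, adjusted p = 3.54e-14). None of these overlapped between stages. The 4 largest falls were of genes abundant in the earlier embryo. Kpna7 stood at 13.2 to 50.6 CPM at late 2C, against 344 to 495 CPM at early 2C (-4.01 ± 0.19, adjusted p = 7.99e-24). Nup37 averaged 23.7 CPM at late 2C and 225 CPM at early 2C (-3.21 ± 0.24, adjusted p = 8.23e-17), and Nup85 48.5 CPM at late 2C and 330.1 CPM at early 2C (-2.81 ± 0.23, adjusted p = 3.54e-15), both of the Y complex. Nup88, of the cytoplasmic side, averaged 67.1 CPM at late 2C and 331 CPM at early 2C (-2.29 ± 0.19, adjusted p = 2.15e-15). Kpna3 and Ipo8 fell as well, by 1.09 and 1.359. Kpna2 did not pass, with 624 ± 367.5 CPM at late 2C and 669 ± 57.9 CPM at early 2C (-0.34, adjusted p = 0.238).

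**Figure D4:**
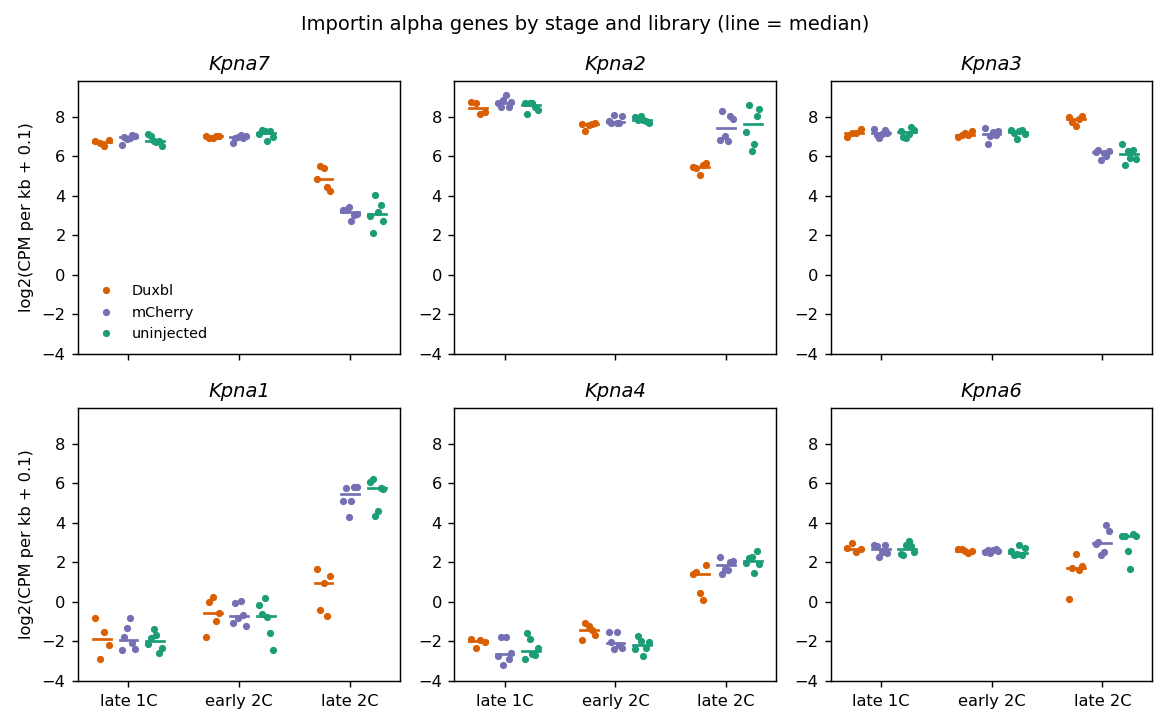
Level as log2(CPM per kb of exon + 0.1) of the 6 importin alpha genes by stage, with a point for each library of Duxbl, mCherry and uninjected embryos and a line at the group median. The groups run together through early 2C and part at late 2C, where Kpna3 and Kpna7 lie above and Kpna1 and Kpna2 below the controls in Duxbl embryos.

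Within Duxbl embryos the step from early to late 2C had fewer rises. At late 2C 9 members were higher and 19 lower than at early 2C, against a background of 20.4% and 18.8%, and the median was -0.46. Under median-of-ratios factors, which moved the median of all genes to 0.11, the members were 11 higher and 17 lower. Of 28808 genes, 6963 were then higher and 4330 lower. In mCherry embryos the same step gave 17 higher and 16 lower, against 30.5% and 26.7%. Library totals gave 20 and 11 there, where 10318 of 28808 genes were higher and 6142 lower. In Duxbl embryos Kpna1 averaged 14.5 CPM at late 2C and 5.31 CPM at early 2C, a rise of 1.18. Xpot (2.53), Kpna4 (2.50) and Ipo7 (2.11) also rose. Kpna7 fell by 2.09, to 97.3 CPM at late 2C against 394 CPM at early 2C, and Nup37 by 2.50, to 45.5 CPM at late 2C against 222 CPM at early 2C. Kpna3, which fell in controls, rose by 0.73 ± 0.15 to 987 CPM at late 2C against 592 CPM at early 2C (adjusted p = 7.53e-05). Ipo8 was at 453 CPM at late 2C and 392 CPM at early 2C and did not pass (0.20), but was called higher under median-of-ratios factors (0.46, adjusted p = 0.02118). Kpna2 fell by 2.13, to 124 CPM at late 2C against 541 CPM at early 2C, and 5 of the 6 members of the Y complex fell.

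The difference between stages was tested directly, as the Duxbl effect at late 2C minus that at early 2C. It was called for 22 members, 3 higher and 19 lower, against 21.9% and 23.1% of all genes. Ipo8 (1.73 ± 0.23, adjusted p = 2.90e-08), Kpna3 (1.70 ± 0.20, 1.05e-09) and Kpna7 (1.68 ± 0.28, 1.93e-06) were the 3 higher. The largest lower values were those of Kpna1 (-4.73 ± 0.60, adjusted p = 5.71e-09), Ipo11 (-3.51 ± 0.43, 2.11e-09), Ipo4 (-3.32 ± 0.51, 3.50e-07) and Nup43 (-3.19 ± 0.36, 3.04e-10). Kpna2 was also among them (-1.77 ± 0.36, adjusted p = 5.91e-05), as were Nup133 and Kpna4. These 2 had missed the threshold at late 2C in the fit of that stage. In the fit of all 9 groups, which this test used, both were lower at late 2C as well (limma adjusted p = 0.0182 and 0.02023). Without Duxbl late 2C library 4 the counts were 6 higher and 20 lower, where 6332 genes were higher and 6712 lower. Under library totals, which moved the median of all genes to -0.10 against 0.03, the members were 3 higher and 22 lower. Of 28808 genes, 5135 were then higher and 7760 lower.

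The uninjected step from early to late 2C and the Duxbl against mCherry difference at late 2C share no library, so each member's place in both can be given. Of the 19 members that rose in the normal step, 13 (68.4%) were lower in Duxbl embryos and 1 higher, against 61.8% and 3.34% of the 8553 genes that rose. The higher one was Xpo7, whose call in each comparison was lost under some alternatives. Of the 15 that fell in the normal step, 3 (20%) were higher in Duxbl embryos, namely Kpna7, Kpna3 and Ipo8, and 1, Nup35, was lower. Over all 6743 genes that fell, 58.5% were higher in Duxbl embryos and 3.9% lower. The other 11 members that fell in the normal step, among them Nup37, Nup85 and Nup88, were not called between Duxbl and mCherry embryos. These Duxbl calls came from the stage fit and the step calls from the fit of all 9 groups. With 9 groups for both, Kpna4, Nup133, Nup62cl and Nup98, which rose in the step, were also lower. Of members that fell, Nup62 and Xpo4 were then higher and Nup93 lower. Ipo9, with no step call, was then higher. Over all genes that fit called 8691 of 28808 higher and 8390 lower, against 6173 and 6703 of 23052 in the stage fit. Of the 7 members with no call in the normal step, 4 were lower in Duxbl embryos (Kpna2, Kpna6, Nup107 and Nup160), which is 57.1% against 14.9% of 7756 genes. This class depends on the scaling: under library totals Kpna6 (0.78, adjusted p = 0.001648) and Nup160 (0.40, adjusted p = 0.04474) were called higher in the normal step, and Kpna6 also under median-of-ratios factors (0.71, adjusted p = 0.01026). These shares are descriptions of a set of 41 genes and were not tested against other sets.

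**Figure D5:**
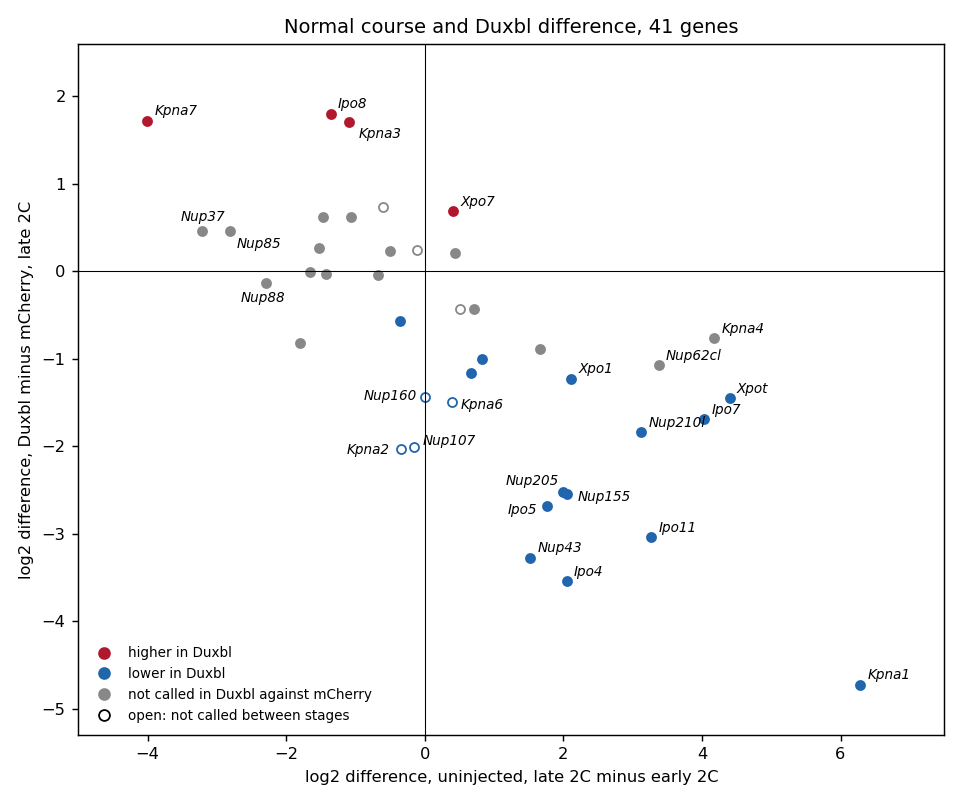
Log2 difference of late minus early 2C in uninjected embryos (horizontal) against the log2 difference of Duxbl minus mCherry embryos at late 2C (vertical) for the 41 members. The axes compare means of separate libraries, but the fits behind the calls share libraries. Red and blue points were called higher or lower in Duxbl embryos, grey ones were not called, and open points were not called between stages. Most members to the right lie below 0, and Kpna7, Kpna3 and Ipo8 stand out at the upper left.

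Other genes of the pathway were read in the same comparison of Duxbl with mCherry embryos at late 2C. Of 10 pore proteins that the name rule does not take, 0 were higher and 4 lower, with a median of -0.39, where 26.8% of all genes were higher and 29.1% lower and their median was -0.05. They were Ranbp2, the main protein of the cytoplasmic filaments (84.4 CPM in Duxbl, 272 CPM in mCherry, -1.60, adjusted p = 1.94e-04), Tpr of the basket (177.5 CPM in Duxbl, 444 CPM in mCherry, -1.27), Ahctf1, which seeds pores on chromatin (101.5 CPM in Duxbl, 249 CPM in mCherry, -1.27), and the mRNA export factor Rae1 (24.5 CPM in Duxbl, 60.98 CPM in mCherry, -1.25). Tpr and Ranbp2 thus fell at sites where the members named above did not pass, and the difference was not tested.

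Of 7 genes of the Ran cycle, 6 were tested, 0 were higher and 4 lower, with a median of -1.68, against the same 26.8% higher and 29.1% lower and median of -0.05 over all genes. Rangap1, which makes Ran hydrolyse its GTP in the cytoplasm, averaged 6.74 CPM in Duxbl and 78.1 CPM in mCherry embryos (-3.36 ± 0.27, adjusted p = 1.26e-09). Its helper Ranbp1 averaged 9.07 CPM in Duxbl and 69.9 CPM in mCherry embryos (-2.95 ± 0.33). Rcc1, the exchange factor that loads Ran with GTP on chromatin, averaged 7.43 CPM in Duxbl and 32.9 CPM in mCherry embryos (-2.21 ± 0.46), and Ranbp3 39.1 CPM in Duxbl and 84.2 CPM in mCherry embryos (-1.15). Ran itself did not pass, at 249.8 CPM in Duxbl and 371.5 CPM in mCherry embryos (-0.51 ± 0.28, adjusted p = 0.131). Rangrf was below the filter.

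Of 10 other transport receptors and mRNA export genes, 1 was higher and 6 lower, with a median of -1.66, against that same background. Nxf1, the main mRNA exporter, averaged 7.54 CPM in Duxbl and 148 CPM in mCherry embryos (-4.29 ± 0.38, adjusted p = 5.75e-09), and its partner Nxt1 28.1 CPM in Duxbl and 227.5 CPM in mCherry embryos (-3.07 ± 0.32). Snupn, which imports spliceosomal snRNPs, averaged 10.2 CPM in Duxbl and 169 CPM in mCherry embryos (-4.02 ± 0.35), and Tnpo3, which imports splicing factors, 23.0 CPM in Duxbl and 133 CPM in mCherry embryos (-2.54 ± 0.33). Ddx19a, a helicase of mRNA export, was the gene that rose, with 83.1 CPM in Duxbl and 30.5 CPM in mCherry embryos (1.41 ± 0.23, adjusted p = 1.74e-05), while its close paralog Ddx19b fell (14.9 CPM in Duxbl, 50.9 CPM in mCherry, -1.74), and reads may be split between the pair. The exporter of importin alpha, Cse1l, averaged 58.1 CPM in Duxbl and 179.5 CPM in mCherry embryos (-1.58, adjusted p = 0.001776). In the normal step of uninjected embryos these lists had 3 higher and 2 lower of 10 pore proteins, 2 and 2 of 6 Ran cycle genes, and 7 and 2 of 10 receptors and export genes, where 30.3% of all genes were higher and 26.6% lower.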

How the data were processed

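RNA was measured in 50 libraries of 5 pooled embryos each, in 9 groups of 4 to 6. Kits were SMART-Seq v4 for cDNA and Nextera XT for libraries, per the labels' protocols, and neither marks the strand. The submitters' processing notes name mm39, featureCounts 2.0.4, DESeq2 1.36.0, STAR 2.7.10a, Trimmomatic 0.39, DESeq and Picard 3.0.0; their roles are not given in the sources used here. The authors deposited whole numbers per gene that move in library-specific steps, so they were treated as a score, counts scaled per library and rounded. No count test was run, as one had been planned only in case the values were raw counts. The lowest maximum of any gene was 6, so rows below some minimum are not in the table.

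Values were divided by library totals times trimmed-mean factors over all libraries (30% of ratios and 5% of abundances trimmed). limma 3.58.1 (R 4.3.3; trended, robust) was fitted on log2(CPM + 1) to genes that reached a deposited value of 10 in a number of libraries equal to the smallest group, per stage for injections and over all 9 groups for stages. Benjamini-Hochberg adjustment was over all genes tested, with calls at an adjusted p under 0.05, two-sided; the scripts were tested on simulated data. The members and lists were chosen with earlier results of these data known. Any member may be named. Values by library are given for Kpna7, Kpna2 and the members called with the largest rises and falls, up to 6 each, whose higher group averaged at least 10 CPM. For the normal step these are 4 each. Other pathway genes are named where called and among the largest 4 changes of their list, and others named were chosen after their values were seen. Exon lengths and overlaps came from GENCODE M21 (GRCm38), promoters from RefSeq.

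Library numbers are shared between groups. Deviations from the group means correlated over 0.1 in every same-numbered pair of Duxbl and mCherry embryos at late 1C (0.303 to 0.462) and early 2C (0.130 to 0.438), and of uninjected early 2C and late 1C embryos (0.110 to 0.426), but not at late 2C (-0.01 to 0.21). Alternatives were another scaling, pseudocount, filter, weighting, block, choice of samples or control, and each library left out in turn.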

Additional observations from a re-analysis of the deposited data

Results flagged for a closer look

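In 4 of the 68 groups of values examined, a single library stood apart from the rest of its group by Dixon's criterion, where chance gives about 1 in 20. Ipo4 was at 20.9 CPM in Duxbl late 2C library 4, against 0.69 to 3.14 CPM in the other 4 libraries. Ipo7 was at 72.0 CPM in Duxbl late 2C library 1, against 21.3 to 29.2 CPM. Xpo7 was at 34.6 CPM in uninjected late 2C library 5, against 58.0 to 71.4 CPM. Nup85 was at 228.5 CPM in uninjected early 2C library 5, against 321.5 to 376 CPM.

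The Duxbl effect differed between late 2C and early 2C for 22 members by the test of the difference itself in limma. On the log2 scale, late 2C minus early 2C, the importin alphas gave -4.73 for Kpna1, -1.77 for Kpna2, -1.50 for Kpna6, -1.28 for Kpna4, 1.68 for Kpna7 and 1.70 for Kpna3. The importin beta family gave -3.51 for Ipo11, -3.32 for Ipo4, -2.84 for Ipo5, -1.78 for Ipo7, -1.17 for Kpnb1 and 1.73 for Ipo8. Exportins gave -1.67 for Xpot, -1.44 for Xpo1 and -1.01 for Xpo5. Nucleoporins gave -3.19 for Nup43, -2.41 for Nup205, -2.36 for Nup155, -1.86 for Nup107, -1.79 for Nup210l, -1.59 for Nup160 and -1.33 for Nup133.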

How the results depend on the processing

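At late 2C between Duxbl and mCherry embryos, the members called were 4 higher and 18 lower, and with any 1 library left out 3 to 6 were higher and 17 to 21 lower. A fit of all 9 groups gave 7 higher and 23 lower, where 8691 of 28808 genes were higher and 8390 lower. At late 2C, 3 of the 5 same-numbered pairs of Duxbl and mCherry libraries correlated over 0.1, so not every pair did. The replicate block gave 5 members higher and 20 lower there, where 6269 of 23052 genes were higher and 6878 lower. It gave 0 member calls at late 1C and early 2C. For uninjected early 2C against late 1C it gave 3 calls, where 2 were called without it. For that stage step the count was 0 with the libraries numbered 4 and 5 left out, 4 with the compared groups only, and 1 to 3 with 1 library left out. For the difference of the Duxbl effect, leaving out 1 library gave 3 to 6 higher. The uninjected step of Kpna2 from early to late 2C (-0.34) was 0.063 under library totals (adjusted p = 0.819) and 0.23 without the libraries numbered 4 and 5 (adjusted p = 0.428); its cause was not tested. Without uninjected late 2C library 3 it was -0.55 (adjusted p = 0.0423). The difference between stages lost its call for Xpot with voom weights (-1.81, adjusted p = 0.070) and for Kpna4 without the libraries numbered 4 and 5 (-1.03, adjusted p = 0.0913). The step of Xpo7 in uninjected embryos lost its call with the compared groups only (0.41, adjusted p = 0.133). It was also lost without any of uninjected late 2C libraries 1, 3, 4, 6 and 7 or early 2C libraries 1 and 4. The limma adjusted p was then 0.0520 to 0.176. Between mCherry and uninjected embryos a fit of all 9 groups called 0 genes at late 1C, 1 at early 2C, and 27 higher and 13 lower at late 2C, where stage fits called 0. Both gave 0 members. Factors within the stage were chosen after seeing the data. Depth is known approximately and only for some libraries, so no detection limit is given.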

Other observations

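The nuclear lamina and envelope, to which pores are anchored, were followed through 10 genes. At late 2C, 0 were higher and 5 lower in Duxbl than in mCherry embryos, with a median log2 difference of -0.86, against 26.8% higher, 29.1% lower and a median of -0.05 over all genes. Sun1, which links the lamina to the cytoskeleton, averaged 16.3 CPM in Duxbl and 86.1 CPM in mCherry embryos (-2.35 ± 0.33, limma adjusted p = 2.68e-06). Lbr, the lamin B receptor, averaged 16.9 CPM in Duxbl and 77.4 CPM in mCherry embryos (-2.18 ± 0.27, adjusted p = 4.57e-07). Lemd3, an inner membrane protein, averaged 13.4 CPM in Duxbl and 50.4 CPM in mCherry embryos (-1.97 ± 0.40), and Banf1, which bridges chromatin and the membrane as the envelope reforms, 58.9 CPM in Duxbl and 191 CPM in mCherry embryos (-1.67 ± 0.25). Emd, which encodes emerin, also fell (-0.90). The lamin genes Lmna, Lmnb1 and Lmnb2 did not pass, at 30.5, 8.21 and 3.98 CPM in Duxbl and 50.8, 9.53 and 3.11 CPM in mCherry embryos. In uninjected embryos 6 of the 10 were higher and 1, Banf1, lower at late 2C than at early 2C, where 30.3% of all genes were higher and 26.6% lower. At late 1C and early 2C limma called 0 of the 10 between Duxbl and mCherry embryos.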
